A study of Mus musculus with 18 samples.

Results

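The genes described here are 9 that carry dopamine, adenosine and cyclic AMP (cAMP) signals in the projection neurons of the striatum: the receptors Drd1, Drd2 and Adora2a, the G protein subunit Gnal, the adenylyl cyclase Adcy5, the G protein regulator Rgs9, the phosphodiesterases Pde10a and Pde1b, and the protein kinase A target Ppp1r1b. They were chosen by name, and every probe set annotated to one of them alone was taken. This gave 18 probe sets for 8 genes, of 28898 probe sets with 1 gene symbol and 17097 genes in all. No probe set is named for Adora2a in the annotation used here, so it has no value. Gnal has 4 probe sets, Adcy5 has 2, Rgs9 has 3, Pde10a has 5, and Drd1, Drd2, Pde1b and Ppp1r1b have 1 each.

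Striatal projection neurons fall into those that carry the D1 receptor, which raises cAMP through the G protein encoded by Gnal, and those that carry the D2 receptor, which lowers it. Adenylyl cyclase 5 makes the cAMP, protein kinase A responds to it, phosphodiesterases break it down, and RGS9 speeds the shut-off of receptor signals. CPEB4 binds mRNAs in the cytoplasm and helps set the length of their poly(A) tails.

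Tissue holding both cortex and striatum, from mice 6 weeks old, was profiled on 18 arrays from 6 animals: 2 CPEB4 KO, 2 CPEB4 GT/+ (heterozygotes carrying the GT allele) and 2 WT. Each animal gave 3 arrays. The ELUTED fraction was released from poly(U) agarose with 90% formamide and is enriched for long poly(A) tails, the WASH fraction was released with 25% formamide and is enriched for short ones, and INPUT is unfractionated total RNA. No other allele, driver or treatment is given in the sources used here, and the replicates are taken as separate animals because the labels number them; were they not, p-values would cover technical spread alone. Values are log2 levels after RMA, and the ELUTED over WASH ratio of an animal is its log2 ELUTED level minus its log2 WASH level. Because the arrays were normalized to each other, a ratio above 0 means a higher normalized level in ELUTED than in WASH and gives no tail length in bases.

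The array medians lay between 6.32 and 6.48 over all probe sets. Arrays of the same group correlated at 0.966 to 0.994 over the 21673 probe sets tested. Cpeb4 itself, at probe set 1449931_PM_at in INPUT, stood at 6.55 and 6.92 in CPEB4 KO, 7.38 and 7.13 in CPEB4 GT/+, and 8.30 and 8.33 in WT. The genotypes did not overlap, and CPEB4 KO minus WT was -1.58 (SE 0.14, limma adjusted p = 0.0255). At 1420618_PM_at the difference was -1.12 (adjusted p = 0.205) and was not called. CPEB4 GT/+ minus WT was -1.06 and -0.73 at these probe sets, not called at either. At the remaining one, 1420617_PM_at, both CPEB4 KO and both CPEB4 GT/+ levels were below 5.61, the highest mean of a nonspecific control probe set, so no difference is given. In INPUT, Foxp1, Arpp21 and Penk of the striatal list stood at 10.75 to 11.66 in all 6 animals. Lamp5, Mef2c and Nptx1 of the cortical list stood at 10.76 to 11.82. These genes were picked as the ones with the highest INPUT mean of their list. Their levels therefore cannot show whether both regions were present.

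Over the 3 genotypes, the receptor genes Drd1 and Drd2, Pde1b and Ppp1r1b were lower in the long-tail than in the short-tail fraction in the values as deposited. All 3 probe sets of Rgs9, 3 of 4 of Gnal and 1 of 2 of Adcy5 were higher, and Pde10a had probe sets in both directions. Of the 18 probe sets 15 were called at an adjusted p under 0.05, 10 higher and 5 lower in ELUTED than in WASH. Among all 21673 probe sets tested 72.9% were called, 26.6% higher and 46.4% lower, so the number called among the striatal genes is near that of the array as a whole. Their median ratio was 0.22, against -0.15 over all probe sets. The balance towards higher comes from genes with several probe sets: at 1 probe set a gene 6 of 8 were called, 2 higher and 4 lower, beside 73.0% of 13325 genes (25.7% higher and 47.3% lower), and the median of the 8 was -0.07 with 4 above 0. Every animal stood on the same side of 0 at 17 of the 18 probe sets, Rgs9 1418691_PM_at being the exception. The zero depends on how the arrays are scaled: the median of all probe sets was 0.14 with arrays centred on their medians, -0.64 after alignment on hybridisation controls and 0.05 after quantile normalization, and the called striatal probe sets then numbered 12 higher with 2 lower, 2 higher with 8 lower, and 13 higher with 3 lower. Of all probe sets 46.1% were then higher and 28.6% lower with centred arrays, 2.67% and 73.2% after alignment, and 37.4% and 32.6% after quantile normalization.

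**Figure D1:**
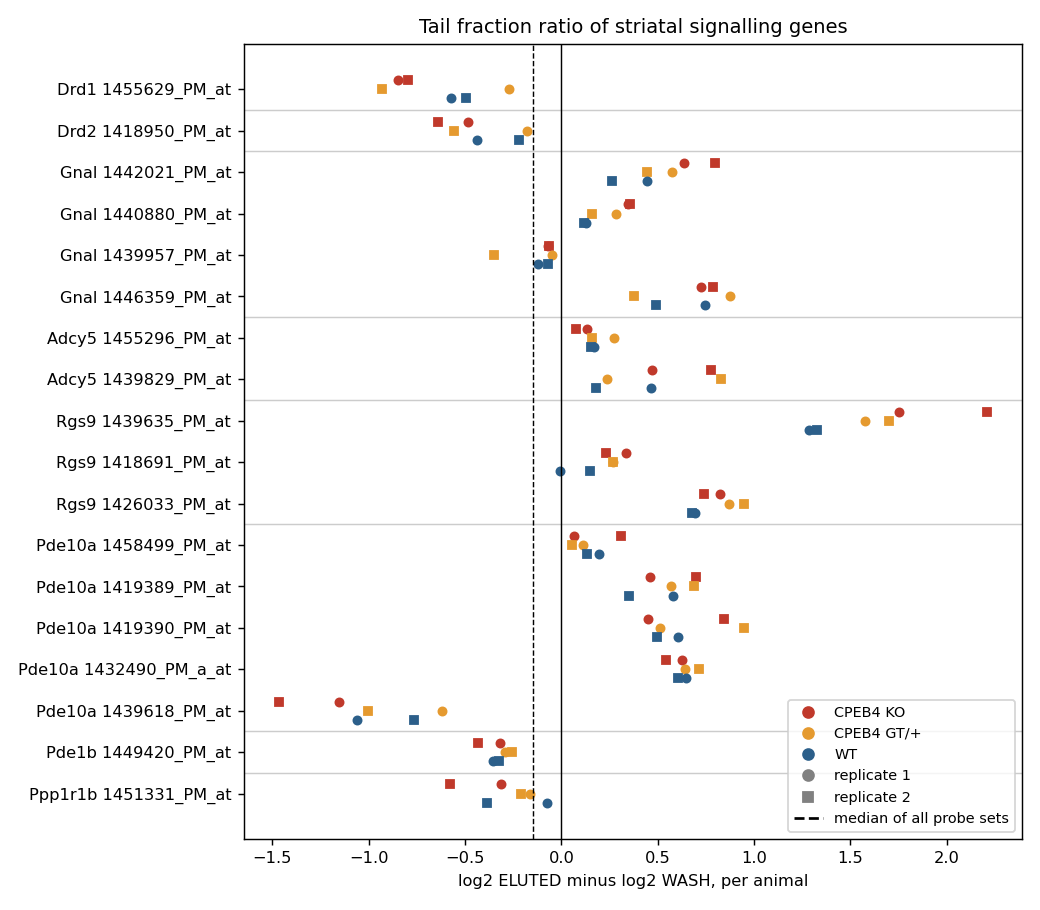
The log2 ELUTED minus log2 WASH ratio (horizontal axis) of each of the 6 animals at the 18 probe sets (rows, grouped by gene), with genotype as colour and replicate number as shape; the dashed line is the median of all probe sets, -0.15. Rgs9 1439635_PM_at stands alone to the right between 1.28 and 2.21, and Pde10a 1439618_PM_at is the only probe set with a mean below -1.

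The D1 receptor gene Drd1 had ratios of -0.85 and -0.80 in the CPEB4 KO animals, -0.27 and -0.93 in CPEB4 GT/+, and -0.57 and -0.50 in WT. All 6 lay below 0, with a mean of -0.65 (SE 0.09, limma adjusted p = 3.62e-04), and the 2 CPEB4 GT/+ animals were the highest and the lowest. Its ELUTED levels were 8.13 and 8.40 in CPEB4 KO, 8.89 and 8.09 in CPEB4 GT/+, and 8.28 and 8.47 in WT. The WASH levels were higher in each animal, at 8.98 and 9.20 in CPEB4 KO, 9.16 and 9.02 in CPEB4 GT/+, and 8.85 and 8.96 in WT. Drd1 was thus lower in the long-tail fraction under all 4 scalings, with means between -1.15 and -0.29. Relative to the median of all probe sets, its mean as deposited was -0.51.

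Drd2, whose receptor lowers cAMP, gave ratios of -0.49 and -0.64 in CPEB4 KO, -0.18 and -0.56 in CPEB4 GT/+, and -0.44 and -0.22 in WT. Its mean was -0.42 (SE 0.08, limma adjusted p = 0.00176), again below 0 in 6 of 6 animals and under all 4 scalings, and -0.27 relative to the median of all probe sets. With arrays centred on their medians the mean was only -0.14. Drd2 was called under 14 of 16 alternative settings of the processing. Against INPUT the WASH fraction stood higher for both receptors: by 0.42 ± 0.12 (SD, n = 6) for Drd1 and by 0.46 ± 0.20 for Drd2, in 6 of 6 animals each. ELUTED minus INPUT was -0.23 ± 0.20 for Drd1 and 0.04 ± 0.23 for Drd2, with animals on both sides of 0 for each gene.

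Gnal encodes the stimulatory G protein alpha subunit that couples D1 and adenosine receptors to the cyclase. At 1442021_PM_at, its brightest probe set, the ratio was 0.64 and 0.80 in CPEB4 KO, 0.57 and 0.44 in CPEB4 GT/+, and 0.44 and 0.26 in WT, with a mean of 0.53 (SE 0.07, limma adjusted p = 2.83e-04). All animals lay above 0. The ELUTED levels, from 10.19 to 10.54, exceeded INPUT by 0.58 ± 0.10 (SD, n = 6), whereas WASH minus INPUT was 0.05 ± 0.14.

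The other Gnal probe sets did not all give that ratio. Probe set 1440880_PM_at was called higher at 0.23 (SE 0.07, limma adjusted p = 0.0143) and 1446359_PM_at at 0.67 (SE 0.09, adjusted p = 2.21e-04), while 1439957_PM_at stood at -0.12 (SE 0.07, adjusted p = 0.169), with all 6 animals between -0.35 and -0.05. The WASH levels of 1446359_PM_at, 5.43 to 5.78, straddled 5.61, the highest mean of a nonspecific control, so its WASH level is close to background. Only 1442021_PM_at and 1446359_PM_at kept a positive mean after alignment on hybridisation controls, at 0.032 and 0.17.

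Adcy5, the main adenylyl cyclase of the striatum, had 2 probe sets of unequal ratio. At 1455296_PM_at, with the higher mean level, the ratios were 0.13 and 0.08 in CPEB4 KO, 0.27 and 0.16 in CPEB4 GT/+, and 0.17 and 0.16 in WT. Their mean of 0.16 (SE 0.07) was not called (limma adjusted p = 0.0601), although all 6 animals lay above 0. At 1439829_PM_at the mean was 0.49 (SE 0.10, adjusted p = 0.00212), with 0.47 and 0.78 in CPEB4 KO, 0.23 and 0.83 in CPEB4 GT/+, and 0.46 and 0.18 in WT. There WASH minus INPUT was -0.56 ± 0.08 (SD, n = 6), while ELUTED minus INPUT was -0.06 ± 0.29. After alignment on hybridisation controls both means were below 0, at -0.33 and -0.0019.

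Rgs9 encodes a regulator that speeds GTP hydrolysis by inhibitory G proteins and, in mice, limits signalling at D2 and opioid receptors in the striatum. Its probe set 1439635_PM_at had the largest ratio among the striatal genes and ranked 12 from the top of 21673 probe sets. The ratios were 1.75 and 2.21 in CPEB4 KO, 1.58 and 1.70 in CPEB4 GT/+, and 1.28 and 1.33 in WT. The mean of 1.64 (SE 0.08, 3.12-fold, limma adjusted p = 1.88e-05) stood 1.79 above the median of all probe sets and was positive and called under all 16 alternatives, from 0.82 to 1.97.

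Both fractions differed from INPUT at this Rgs9 probe set. ELUTED levels were 10.24 and 10.06 in CPEB4 KO, 10.24 and 10.41 in CPEB4 GT/+, and 9.89 and 9.94 in WT. WASH levels were 8.48 and 7.85 in CPEB4 KO, 8.66 and 8.70 in CPEB4 GT/+, and 8.61 and 8.61 in WT. INPUT levels lay between them, at 9.18 and 9.09 in CPEB4 KO, 9.51 and 9.31 in CPEB4 GT/+, and 9.37 and 9.42 in WT. The lowest ELUTED level of any animal was therefore above the highest INPUT level, and the highest WASH level below the lowest INPUT level. ELUTED minus INPUT averaged 0.82 ± 0.26 (SD, n = 6) and WASH minus INPUT -0.82 ± 0.22.

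**Figure D2:**
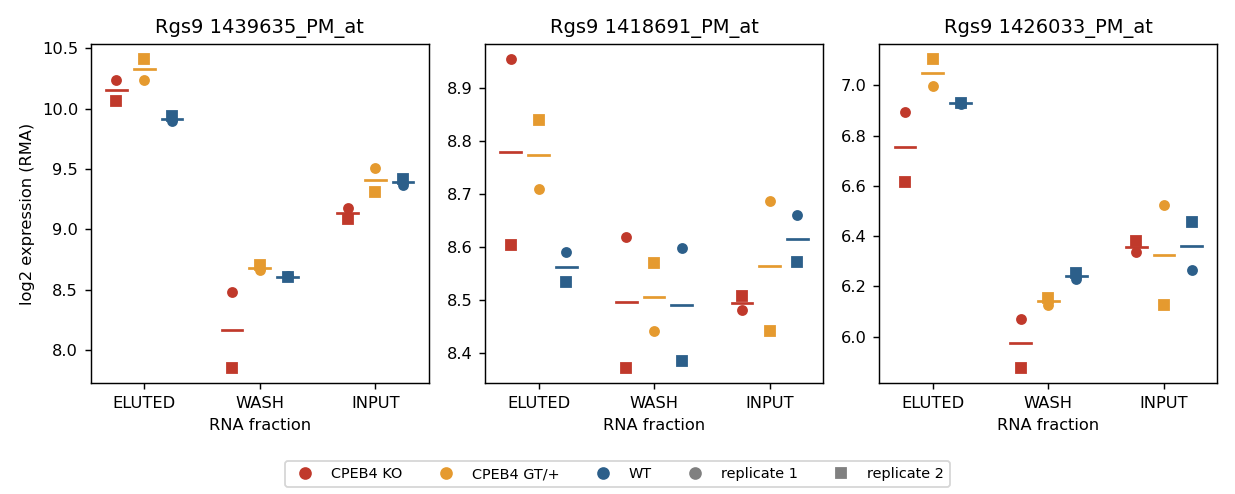
The log2 level (vertical axis, a separate scale in each panel that does not start at 0) of the 3 Rgs9 probe sets in ELUTED, WASH and INPUT, by genotype (colour) and replicate (shape), with a bar at each mean of 2 animals. At 1439635_PM_at ELUTED lies above INPUT and WASH below it in every animal, whereas at 1418691_PM_at the 3 fractions overlap.

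The other Rgs9 probe sets gave smaller ratios in every animal. Probe set 1426033_PM_at had a mean of 0.79 (SE 0.07, limma adjusted p = 4.11e-05), with all animals between 0.68 and 0.95. Probe set 1418691_PM_at had a mean of 0.21 (SE 0.07, adjusted p = 0.0247), with the WT animals at -0.01 and 0.15 and the others between 0.23 and 0.33. The ratio of 1439635_PM_at exceeded that of 1418691_PM_at by 1.43 ± 0.28 (SD, n = 6) and that of 1426033_PM_at by 0.85 ± 0.32, in 6 of 6 animals each. After alignment on hybridisation controls the mean of 1418691_PM_at was -0.29. Rgs9 is known to give transcripts that differ at their 3′ ends, and which of them each probe set reads is not given in the sources used here.

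Pde10a encodes the phosphodiesterase most typical of striatal projection neurons, which breaks down both cAMP and cyclic GMP. It was the only gene of the group with probe sets called in both directions. Probe sets 1419389_PM_at (0.56, SE 0.08), 1419390_PM_at (0.64, SE 0.09) and 1432490_PM_a_at (0.63, SE 0.07) were called higher, with limma adjusted p of 2.64e-04, 3.05e-04 and 9.16e-05. The last of these varied least, from 0.55 to 0.72 over the 6 animals. Probe set 1458499_PM_at, with the highest mean level, stood at 0.15 (SE 0.07, adjusted p = 0.0959) and was not called.

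The remaining Pde10a probe set, 1439618_PM_at, went the other way. Its ratios were -1.15 and -1.46 in CPEB4 KO, -0.62 and -1.004 in CPEB4 GT/+, and -1.06 and -0.77 in WT, with a mean of -1.01 (SE 0.09, limma adjusted p = 4.32e-05). It was below 0 under all 4 scalings, from -1.51 to -0.73. WASH stood above INPUT by 0.86 ± 0.22 (SD, n = 6), in 6 of 6 animals, while ELUTED minus INPUT was -0.15 ± 0.27. At 1419389_PM_at, 1419390_PM_at, 1432490_PM_a_at and 1458499_PM_at WASH stood below INPUT in 6 of 6 animals, with mean differences of -0.78 to -0.27. What part of the Pde10a transcripts each probe set reads was not tested.

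Pde1b, a calcium- and calmodulin-dependent phosphodiesterase, had ratios of -0.32 and -0.43 in CPEB4 KO, -0.29 and -0.26 in CPEB4 GT/+, and -0.35 and -0.32 in WT. It was the least variable of the called lower genes, with a mean of -0.33 (SE 0.07, limma adjusted p = 0.0025) and an SD of 0.06 over the 6 animals. Ppp1r1b encodes DARPP-32, which inhibits protein phosphatase 1 once protein kinase A has phosphorylated it. Its ratios were -0.31 and -0.58 in CPEB4 KO, -0.16 and -0.21 in CPEB4 GT/+, and -0.07 and -0.39 in WT, with a mean of -0.29 (SE 0.08, adjusted p = 0.0102). Both sat close to the median of all probe sets, at -0.18 and -0.14 relative to it. With arrays centred on their medians Pde1b stood at -0.047 and Ppp1r1b at -0.0044, and after quantile normalization at -0.11 and 0.032, so that Pde1b stayed below 0 under all 4 scalings and Ppp1r1b did not. Both tail fractions of Ppp1r1b lay below INPUT in 6 of 6 animals, ELUTED minus INPUT being -0.40 ± 0.18 (SD, n = 6) and WASH minus INPUT -0.11 ± 0.05.

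**Figure D3:**
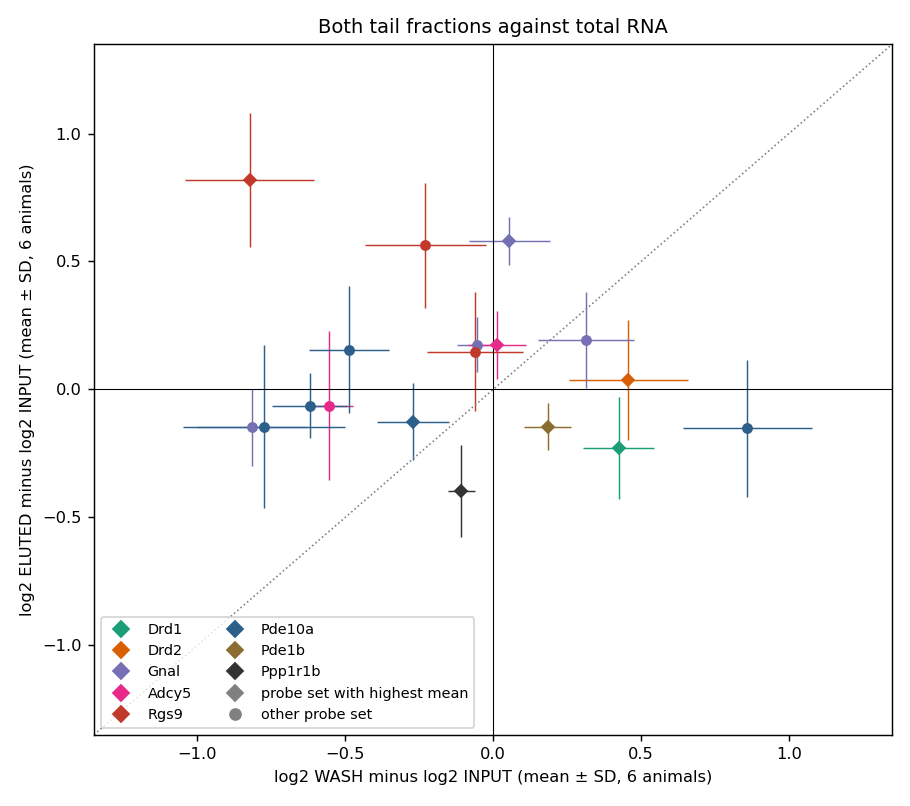
Mean log2 ELUTED minus INPUT (vertical) against mean log2 WASH minus INPUT (horizontal) of the 18 probe sets, with bars of 1 SD over 6 animals; diamonds are the probe set of each gene with the highest mean level, and the dotted line marks equal values. Rgs9 1439635_PM_at lies at -0.82 and 0.82, Pde10a 1439618_PM_at at 0.86 and -0.15, and Ppp1r1b is the only gene below 0 on both axes in all 6 animals.

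Of the RNA quality measures, the Actb one differed between the fractions. The 3′ minus 5′ difference of the Actb control probe sets was -0.465 to -0.306 in ELUTED, -0.208 to -0.059 in WASH and -0.476 to -0.414 in INPUT, and its part in the ratios was not tested. That of Gapdh overlapped, at -0.053 to 0.062 in ELUTED, -0.132 to 0.020 in WASH and -0.099 to -0.049 in INPUT. With INPUT in place of WASH as the denominator, 4 of the 18 probe sets were called, beside 44.7% of all probe sets (15.8% higher and 28.9% lower), a share below the background: Rgs9 1439635_PM_at (0.82) and 1426033_PM_at (0.56) and Gnal 1442021_PM_at (0.58) were higher, and Ppp1r1b (-0.40) was lower. Drd1 stood at -0.23 there (limma adjusted p = 0.0673) and was no longer called.

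The wider pathway lists were judged at 1 probe set a gene. As deposited, their counts stand beside 25.7% of genes higher and 47.3% lower on the array at 1 probe set a gene. Counts under another scaling have a different background. Over every probe set tested, median centring called 46.1% higher against 28.6% lower. Quantile normalization called 37.4% against 32.6%, and alignment on hybridisation controls 2.67% against 73.2%. Of 11 modulator receptors tested 6 were higher in ELUTED and 1 lower (median 0.29). Median centring and quantile normalization each gave 9 higher and 1 lower. Alignment on hybridisation controls turned the balance to 1 higher and 5 lower. The receptor median was then -0.21, still above the -0.64 of the whole array. With INPUT in place of WASH 2 receptors were higher and 2 lower, beside 15.8% and 28.9% of all probe sets. The receptor median was 0.013 there, against -0.035 over all probe sets. As deposited, the serotonin receptor gene Htr6 stood at 0.77 (SE 0.10) and Htr2c, another, at -0.83 (SE 0.07). The opioid receptor genes Oprd1 and Oprm1 stood at 0.73 (SE 0.08) and 0.49 (SE 0.09). Drd1 and Drd2 lay on the same side as Htr2c.

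Among 20 other G protein subunits and RGS regulators, 3 were higher and 11 lower (median -0.28), with 7 higher and 4 lower when arrays were centred on their medians and 6 higher and 5 lower after quantile normalization. Rgs7bp, the membrane anchor of the RGS family to which Rgs9 belongs, stood at 0.51 (SE 0.08), and the alpha subunit genes Gnao1 and Gnaq at 0.25 and 0.24. Lower were the inhibitory alpha subunit gene Gnai3 (-1.32, SE 0.10), the regulator Rgs2 (-1.06, SE 0.15) and Ric8b (-0.61, SE 0.09), a chaperone of stimulatory alpha subunits.

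Of 7 other adenylyl cyclases 2 were higher, Adcy9 (0.37, SE 0.08) and Adcy1 (0.32, SE 0.08), and 3 lower, Adcy8 (-0.74, SE 0.09), Adcy3 (-0.68, SE 0.08) and Adcy2 (-0.48, SE 0.07). The balance was 4 higher and 3 lower both with centred arrays and after quantile normalization. Of 13 other phosphodiesterases 9 were lower and 3 higher (median -0.37), and with centred arrays 5 were lower and 3 higher. As deposited, Pde6d, a prenyl-binding subunit (-0.78, SE 0.11), Pde8b (-0.65, SE 0.09) and Pde3b (-0.57, SE 0.08) were lowest, and Pde4a (0.47, SE 0.08), Pde3a (0.40, SE 0.10) and Pde7b (0.32, SE 0.09) highest.

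Protein kinase A subunits, phosphatases and their targets were lower at 16 of 25 and higher at 2 (median -0.23), with 8 lower and 6 higher when arrays were centred on their medians. The kinase anchor Akap5 (0.52, SE 0.07) and the striatum-enriched phosphatase gene Ptpn5 (0.31, SE 0.07) were higher. Cdk5 (-0.84, SE 0.09), whose kinase phosphorylates DARPP-32, the phosphatase 1 inhibitor gene Ppp1r2 (-0.79, SE 0.11) and the regulatory subunit gene Prkar2b (-0.78, SE 0.08) were lower.

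Other genes typical of striatal projection neurons went both ways. Of 22 tested 4 were higher and 9 lower (median -0.12), with 9 higher and 4 lower both with centred arrays and after quantile normalization. Beside the last counts, the array's own share called higher was 46.1% when centred and 37.4% after quantile normalization. Its share called lower was 28.6% and 32.6%. Foxp1, a transcription factor (0.49, SE 0.07), and Rasd2, a striatal small GTPase (0.39, SE 0.07), were higher, as was Pde7b. Tac1, the substance P precursor of D1 receptor neurons (-1.90, SE 0.17), Ido1 (-0.90, SE 0.11) and the Rap exchange factor Rasgrp2 (-0.50, SE 0.09) were lower. After alignment on hybridisation controls 0 genes of this list were higher and 16 lower. Higher calls then fell to 0 in the G protein, cyclase, phosphodiesterase and protein kinase A lists too, with 17, 5, 10 and 23 lower.

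For the cell types that share the dissection only counts are given, to be read against the array's 25.7% higher and 47.3% lower. Cortical excitatory neuron genes were higher at 2 and lower at 13 of 20, GABA and cholinergic interneuron genes at 3 and 6 of 12, astrocyte genes at 2 and 5 of 8, and oligodendrocyte genes at 0 and 7 of 9. Microglia genes were higher at 1 and lower at 6 of 8, endothelial and mural genes at 1 and 5 of 8, and genes of other brain regions and pituitary at 2 and 2 of 10. With centred arrays the counts are instead to be read against 46.1% of all probe sets higher and 28.6% lower. There cortical genes stood at 6 higher and 7 lower, interneuron genes at 5 and 5, astrocyte genes at 2 and 2 and oligodendrocyte genes at 1 and 3. Microglia genes stood at 1 and 5, endothelial and mural genes at 2 and 4 and genes of other regions at 5 and 1. After alignment on hybridisation controls only the astrocyte list kept a higher gene (1 of 8), beside 2.67% of all probe sets higher and 73.2% lower.

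Within each genotype the same probe sets kept their sides, with fewer of them called in CPEB4 GT/+ and in WT. In CPEB4 KO 14 of 18 were called, 9 higher and 5 lower, against 54.8% of all probe sets (17.8% higher and 36.9% lower), and their median ratio was 0.32. In CPEB4 GT/+ 10 were called, 8 higher and 2 lower, against 50% (15.2% and 34.7%), with a median of 0.25. In WT 8 were called, 6 higher and 2 lower, against 30.2% (6.82% and 23.3%), with a median of 0.16. At 1 probe set a gene the calls were 2 higher and 4 lower of 8 in CPEB4 KO, beside 16.2% and 37.7% of all genes. They were 2 and 1 in CPEB4 GT/+, beside 13.9% and 35.3%, and 1 and 1 in WT, beside 4.68% and 21.6%. With 2 animals a genotype these counts rest on single animals: CPEB4 KO gave 7 without its replicate 1 and 3 without its replicate 2, beside 32.1% and 13.65% of all probe sets, and WT gave 0 without either of its animals, as did the whole array. The probe sets called in all 3 genotypes were Drd1, Gnal 1446359_PM_at, Rgs9 1439635_PM_at and 1426033_PM_at, and Pde10a 1419389_PM_at, 1419390_PM_at, 1432490_PM_a_at and 1439618_PM_at.

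Whether loss of Cpeb4 changed the tail ratio was asked by comparing the ratios between genotypes. None of the 18 probe sets was called by limma in any of the 3 comparisons, and neither was any other of the 21673, so the background is 0%. At an unadjusted p under 0.05 there was 1 of the 18 in CPEB4 KO minus WT, 0 in CPEB4 GT/+ minus WT and 1 in CPEB4 KO minus CPEB4 GT/+, against 1377, 234 and 477 of all probe sets. Both CPEB4 KO animals lay outside both WT animals at 10 of the 18, above at 6 and below at 4, beside 50.7% of all probe sets (21.5% above and 29.2% below). For CPEB4 GT/+ minus WT this held at 6 above and 1 below, beside 22.7% of all (12.4% above and 10.4% below). For CPEB4 KO minus CPEB4 GT/+ it held at 3 above and 6 below, beside 23.1% of all (10.9% and 12.2%). The median difference of the 18 was 0.06 for CPEB4 KO minus WT, against -0.02 over all probe sets. The first count is near its background and the others above it, with the same animals in several comparisons and probe sets of 1 gene counted separately. At 1 probe set a gene the counts were 2 above and 3 below, 3 and 1, and 2 and 3 of 8. Only the shares over all probe sets given above stand beside them. Since 2 animals against 2 cannot give an exact p below 0.333, no exact test of a single probe set was made.

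The Rgs9 probe set 1439635_PM_at had the largest genotype difference of the group. Its ratio averaged 1.98 ± 0.32 (SD, n = 2) in CPEB4 KO, 1.64 ± 0.09 in CPEB4 GT/+ and 1.31 ± 0.03 in WT, and the animals of the 3 genotypes did not overlap. CPEB4 KO minus WT was 0.68 (SE 0.20, limma adjusted p = 0.755), CPEB4 GT/+ minus WT 0.33 (adjusted p = 0.9997) and CPEB4 KO minus CPEB4 GT/+ 0.34 (adjusted p = 0.9997). Over the alternatives CPEB4 KO minus WT ranged from 0.33 to 0.90 with adjusted p of 0.154 to 1.00, and was called in none; without CPEB4 KO replicate 2 it was 0.45. The spread of the ratio over all probe sets also differed between animals, at 0.61 and 0.76 (SD) in CPEB4 KO, 0.43 and 0.79 in CPEB4 GT/+, and 0.50 and 0.43 in WT. Divided by its animal's spread, the Rgs9 ratio was 3.08 and 3.15 in CPEB4 KO, 3.90 and 2.42 in CPEB4 GT/+, and 2.83 and 3.41 in WT, so that the genotypes overlapped.

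The other genotype differences were smaller. At Gnal 1442021_PM_at CPEB4 KO minus WT was 0.37 (limma adjusted p = 0.755), at Drd1 -0.29 (adjusted p = 0.792), at Drd2 -0.23 (adjusted p = 0.802) and at Pde10a 1439618_PM_at -0.40 (adjusted p = 0.755). The animals of CPEB4 KO and WT did not overlap at any of these 4. In units of the animal's own spread Drd1 stood at -1.21 and -0.82 in CPEB4 KO, -0.40 and -0.92 in CPEB4 GT/+, and -0.88 and -0.87 in WT, and overlapped. Drd2 stood at -0.61 and -0.62 in CPEB4 KO, -0.19 and -0.45 in CPEB4 GT/+, and -0.61 and -0.22 in WT. On that scale CPEB4 KO no longer lay apart from WT at either receptor: both WT animals lay between the CPEB4 KO animals at Drd1, and WT replicate 1 did so at Drd2. Gnal 1442021_PM_at stood at 1.24 and 1.28 in CPEB4 KO, 1.56 and 0.82 in CPEB4 GT/+, and 1.15 and 0.91 in WT. There CPEB4 KO still lay above WT. CPEB4 GT/+ minus WT ran from -0.11 to 0.33 over the 18 probe sets. CPEB4 KO minus CPEB4 GT/+ ran from -0.50, at Pde10a 1439618_PM_at, to 0.34, at Rgs9 1439635_PM_at.

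In INPUT the comparison asked whether the amount of these transcripts differed between genotypes. In tissue that holds both regions, fewer striatal cells and less RNA per cell cannot be told apart. Again 0 of the 18 probe sets were called in each comparison, against 0.0277% of all in CPEB4 KO minus WT, 0% in CPEB4 GT/+ minus WT and 0.00923% in CPEB4 KO minus CPEB4 GT/+. The counts at an unadjusted p under 0.05 were 2, 0 and 1, against 2380, 746 and 1736 of all probe sets. Animals did not overlap at 2 above and 2 below in CPEB4 KO minus WT, beside 42.5% of all probe sets (24.1% above and 18.5% below). This held at 1 above and 0 below in CPEB4 GT/+ minus WT, beside 32.7% of all (17.9% and 14.8%), and at 0 above and 4 below in CPEB4 KO minus CPEB4 GT/+, beside 37.7% of all (21.9% and 15.8%). As shares of 18, all 3 totals over both directions are below their background. In CPEB4 KO minus CPEB4 GT/+ the 4 below are more than the 15.8% of that direction, and the 0 above fewer than the 21.9%.

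Drd2 had the largest INPUT difference. Its levels were 7.01 and 6.81 in CPEB4 KO, 6.99 and 6.60 in CPEB4 GT/+, and 6.05 and 6.72 in WT. WT replicate 1 was the lowest animal, and the other 5 lay within 6.60 to 7.01. CPEB4 KO minus WT was 0.52 (SE 0.22, limma adjusted p = 0.447) and CPEB4 GT/+ minus WT 0.41 (adjusted p = 0.9997). Without WT replicate 1 these were 0.18 and 0.071. After alignment on hybridisation controls CPEB4 KO minus WT was called (limma adjusted p = 0.0291), a setting that called 2.23% of all probe sets against 0.0277% as deposited, and over the 16 alternatives the adjusted p ran from there to 0.90.

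Rgs9 1439635_PM_at was the other probe set with an unadjusted p under 0.05. Both CPEB4 KO animals lay below all others in INPUT, with differences of -0.26 from WT (SE 0.11, limma adjusted p = 0.444) and -0.28 from CPEB4 GT/+ (adjusted p = 0.589). Its other probe sets showed -0.12 and -0.0039 against WT. WT replicate 1 also stood low at Pde10a 1439618_PM_at, at 5.91 with the other 5 animals between 6.60 and 6.79, and CPEB4 KO minus WT was 0.34 there (adjusted p = 0.589). The remaining Pde10a probe sets differed between CPEB4 KO and WT by -0.07 to 0.165. Drd1, Gnal, Adcy5, Pde1b and Ppp1r1b had CPEB4 KO minus WT differences between -0.06 and 0.17 at each of their probe sets.

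Lists of region-typical genes were averaged in each animal. Whether these averages measure the mix of regions was not tested. The mean deviation of the other striatal genes in INPUT was 0.01 and 0.11 in CPEB4 KO, 0.09 and -0.09 in CPEB4 GT/+, and -0.07 and -0.05 in WT, and that of cortical genes -0.07 and 0.12 in CPEB4 KO, 0.10 and 0.03 in CPEB4 GT/+, and -0.12 and -0.06 in WT. The striatal and cortical deviations had the same sign in both WT animals and in 1 animal each of CPEB4 KO and CPEB4 GT/+. They had opposite signs in the other animals. Genes of other brain regions and pituitary varied more. Their deviations were 0.22 and -0.01 in CPEB4 KO, -0.51 and -0.08 in CPEB4 GT/+, and 0.64 and -0.26 in WT. There WT replicate 1 was highest. The part of the dissection in the low Drd2 level of that animal was not tested. No gene of these lists or of the pathway lists was called in a comparison between genotypes, in INPUT or in the ratio.

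**Figure D4:**
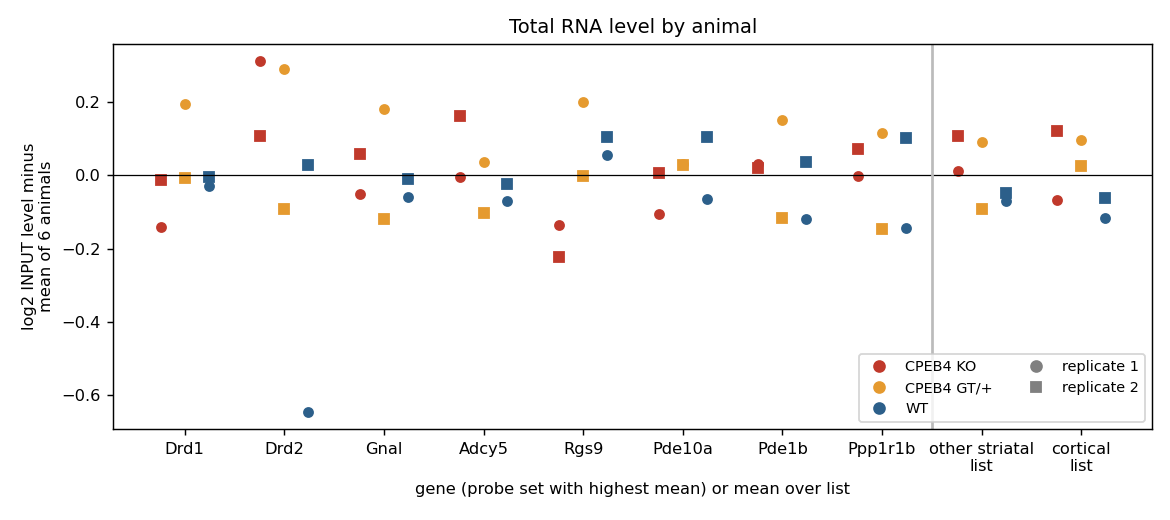
The log2 INPUT level of each gene, at its brightest probe set, minus the mean of the 6 animals (left of the grey line), and the mean deviation of the other striatal and the cortical lists (right of it), by genotype (colour) and replicate (shape). WT replicate 1 stands apart at Drd2, and both CPEB4 KO animals are lowest at Rgs9.

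Averaged over their 8 leading probe sets, which lie on both sides of 0, the striatal genes made a nearly flat profile over the 18 arrays, with a root mean square of 0.097 around its mean. The 5 genes nearest to that mean profile among 13317 were Atp6v1g2, Phactr1, Elapor1, Mapk10 and Fscn1, at root mean square differences of 0.062 to 0.072. These genes vary little themselves, with root mean squares of 0.069 to 0.13, so the likeness shows little beyond low variation. Of the striatal genes themselves Adcy5 lay nearest to it, at 0.075, and Rgs9 farthest, at 0.66.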

How the data were processed

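The deposited table holds log2 values of 45141 probe sets on 18 Affymetrix arrays. RMA made them, per the submitters' processing notes, with no version given. RMA normalizes arrays to each other, so differences in total poly(A) RNA between fractions are not measured. The series text names the arrays Mouse PrimeView, whereas the probe names match another mouse design, whose platform annotation alone was used to name genes. Of the probe sets, 28898 had 1 symbol in it and 28689 matched RefSeq by Entrez identifier. The lowest 25% by mean over 18 arrays (below 5.35) were left out, and 21673 were tested, all 18 of the striatal genes included.

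Per-animal ratios and INPUT levels were fitted with limma 3.58.1 in R 4.3.3 (lmFit, contrasts.fit, eBayes without trend, 3 residual degrees of freedom, two-sided). The 3 genotypes shared 1 spread, in 10 comparisons, with Benjamini-Hochberg adjustment over all probe sets. Called means an adjusted p under 0.05. Precision is limited by the number of arrays.

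The genes and the 13 lists were chosen with earlier results of these data known. Named list genes are the called ones with the largest differences, up to 3 a direction, in the 6 signalling and striatal lists, and the 3 with the highest INPUT mean of the striatal and cortical lists; the other lists are given as counts. Alternatives changed the filter, scaling, probe set choice, prior, denominator, pairing and animals.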

Additional observations from a re-analysis of the deposited data

Results flagged for a closer look

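Of 18 sets of 6 ratios examined, 1 held an animal far from the others: at Gnal 1439957_PM_at the ELUTED over WASH ratio of CPEB4 GT/+ replicate 2 was -0.35, and the nearest other animal was at -0.12. The gap was 0.76 of the whole range, above Dixon's 95% critical value for 6 samples. Chance alone marks about 1 in 20 such sets.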

How the results depend on the processing

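Counts of called probe sets refer to the 18 of the striatal genes, or to 8 genes where each gene gave 1 value. Shares of all features called follow each count, except where 1 animal was left out or a replicate block was used. Leaving out 1 animal also moved the calls over the whole array. Over the 3 genotypes 15 (72.9%) were called, against 6 (73.0%), 2 higher and 4 lower, with 1 probe set per gene, 8 (73.2%), 4 and 4, with the mean of a gene's probe sets and 4 (44.7%), 3 and 1, with INPUT in place of WASH. In CPEB4 KO 14 (54.8%) became 6 (53.9%), 7 (54.4%) and 4 (30.6%) under the same settings and 7 (63.1%) after alignment on hybridisation controls. In CPEB4 GT/+ 10 (50%) became 3 (49.2%), 5 (49.8%), 3 (12.8%) and 5 (42.5%). In WT 8 (30.2%) became 2 (26.3%), 3 (25.5%) and 0 (0.614%), with 6 (41.4%) when aligned. The first 2 settings test fewer features; for the others the cause was not tested. For INPUT, CPEB4 KO minus WT gave 1 in place of 0 when aligned (Drd2), where the calls over all probe sets went up to 484 (2.23%), against 6 as deposited. Leaving out 1 animal gave 12 to 16 over the 3 genotypes, 3 to 15 in CPEB4 KO, 7 to 10 in CPEB4 GT/+ and 0 to 11 in WT, and 0 in every comparison between genotypes. Where a genotype was left with 1 animal, that animal was assumed to vary like the others. Replicate numbers were not taken to pair animals. For the ratio, their deviations correlated at -0.29 between CPEB4 KO and WT and at -0.33 between CPEB4 GT/+ and WT. Between CPEB4 KO and CPEB4 GT/+ the correlation was 0.48, and what lies behind it was not tested. With the replicate number as a block 0 probe sets were called in each genotype comparison, as without it. With the WASH and ELUTED arrays of an animal taken as separate samples, the counts were 16 (74.2%) over the 3 genotypes and 14 (57.3%) in CPEB4 KO. They were 10 (53.0%) in CPEB4 GT/+ and 9 (33.2%) in WT.

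Sign turns are named where the value was called before or after the turn. Among the striatal probe sets, 3 turns over the 3 genotypes, 5 in CPEB4 KO, 12 in CPEB4 GT/+ and 15 in WT were called in neither, as for Gnal 1439957_PM_at with centred arrays (0.16). Means over the 3 genotypes turned sign with aligned arrays at Gnal 1440880_PM_at (-0.26), Adcy5 1455296_PM_at (-0.33) and 1439829_PM_at (-0.0019), Rgs9 1418691_PM_at (-0.29) and Pde10a 1458499_PM_at (-0.35). The same happened at Oprm1 (-0.0052), Gnao1 (-0.25), Gnaq (-0.26), Adcy9 (-0.13), Adcy1 (-0.18), Pde4a (-0.025), Pde3a (-0.095), Pde7b (-0.17), Ptpn5 (-0.18) and Rasd2 (-0.10). After quantile normalization Gnal 1439957_PM_at (0.24) and Ppp1r1b (0.032) turned, and Rasgrp2 (0.015) with the mean of its probe sets. With INPUT in place of WASH it was Drd2 (0.037), Gnal 1446359_PM_at (-0.15), Adcy5 1439829_PM_at (-0.064), Pde10a 1419389_PM_at (-0.064) and 1432490_PM_a_at (-0.15), Oprm1 (-0.19) and Adcy1 (-0.068). In CPEB4 KO aligned arrays turned Gnal 1440880_PM_at (-0.28), Adcy5 1439829_PM_at (-0.0067), Pde10a 1419389_PM_at (-0.051) and 1432490_PM_a_at (-0.043). Quantile normalization turned Gnal 1439957_PM_at (0.34), and INPUT in place of WASH Gnal 1446359_PM_at (-0.12), Pde10a 1419389_PM_at (-0.069) and 1432490_PM_a_at (-0.22). With that denominator CPEB4 GT/+ turned at Gnal 1446359_PM_at (-0.16) and Adcy5 1439829_PM_at (-0.037), and WT at Gnal 1446359_PM_at (-0.16) and Pde10a 1419389_PM_at (-0.15), 1432490_PM_a_at (-0.28) and 1439618_PM_at (0.012). The share of called probe sets that were higher was 36.4% as deposited, 61.7% with centred arrays, 3.51% aligned and 53.5% after quantile normalization.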
